A study of Mus musculus with 6 samples.

Results

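Cntrl, Myo5c, Tnfrsf18, Gm11266 and Kctd15 are 5 of the 55416 genes counted in the tibialis anterior (TA) muscle of aged mice with and without the selenoprotein SELENOW. They were selected on the measured counts themselves, because no WT library overlapped any KO library, and because they stand outside the gene lists looked at for the whole table. The genotype comparison therefore chose them, and their differences between WT and KO are given as a description with no test. All 5 were in the table, and all 5 were among the 15623 genes with enough counts to be tested.

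RNA sequencing was performed on TA muscle from 3 WT and 3 SELENOW KO mice aged 24 months. The mice were on the C57BL/6N background and, per the methods, male. In the KO animals exon 4 of Selenow was removed from the germ line with CRISPR-Cas9 and a pair of guide RNAs, so every cell of the muscle carried the deletion. One WT library carries no replicate number in the count table and is called the unnumbered WT library, while the others are replicates 2 and 3 of WT and replicates 1, 2 and 3 of KO.

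SELENOW is a small selenocysteine protein with a thioredoxin-like fold that is abundant in skeletal muscle. The 5 genes have unrelated roles. Cntrl encodes centriolin, a protein of the mother centriole that also gathers at the midbody and is needed for the final cut between dividing cells. Myo5c encodes a class V myosin, an actin motor that carries secretory granules and other vesicles and is best known from glandular epithelium. Tnfrsf18 encodes GITR, a costimulatory receptor of the TNF receptor superfamily found on regulatory and activated T cells. Kctd15 encodes a BTB domain protein that holds back AP-2 transcription factors in the neural crest, the embryonic source of pigment cells and peripheral glia. Gm11266 is a long noncoding RNA gene whose function is not described in the sources used here. Mature muscle fibers do not divide and lack conventional centrosomes, whereas a whole muscle also holds satellite cells, endothelium, nerve, fat and immune cells. In bulk RNA, more cells of a type and more RNA per cell cannot be told apart.

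Because the genes share only the way they were picked, the sequence just upstream of each is shown to let their promoters be compared. Each line gives 250 bases before and 50 bases after the start site from RefSeq on the mouse build GRCm38.p6, 5′ to 3′ on the gene's own strand. The windows are chr2:35109242-35109541 (plus strand) for Cntrl, chr9:75231764-75232063 (plus) for Myo5c, chr4:156026072-156026371 (plus) for Tnfrsf18, chr4:82507739-82508038 (plus) for Gm11266 and chr7:34655460-34655759 (minus) for Kctd15. Capitals mark matches on either strand to the TATA box letters TATAAA. They also mark the CCAAT motif known from many promoters. The GC box, spelled GGGCGG here, is marked as well. So are the E-box read as CAGCTG and the core of the antioxidant response element read as TGACNNNGC, where N is any base.
Cntrl: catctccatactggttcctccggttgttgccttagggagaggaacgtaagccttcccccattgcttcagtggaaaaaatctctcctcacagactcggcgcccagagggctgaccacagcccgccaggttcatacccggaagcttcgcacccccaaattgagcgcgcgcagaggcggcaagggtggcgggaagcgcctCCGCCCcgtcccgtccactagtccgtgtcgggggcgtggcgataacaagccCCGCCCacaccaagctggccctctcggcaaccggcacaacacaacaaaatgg
Myo5c: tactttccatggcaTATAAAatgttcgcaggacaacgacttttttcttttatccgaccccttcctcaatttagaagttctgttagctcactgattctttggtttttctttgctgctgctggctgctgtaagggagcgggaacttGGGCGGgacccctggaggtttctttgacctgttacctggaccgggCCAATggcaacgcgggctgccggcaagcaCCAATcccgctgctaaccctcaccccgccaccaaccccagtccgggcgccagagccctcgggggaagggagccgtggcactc
Tnfrsf18: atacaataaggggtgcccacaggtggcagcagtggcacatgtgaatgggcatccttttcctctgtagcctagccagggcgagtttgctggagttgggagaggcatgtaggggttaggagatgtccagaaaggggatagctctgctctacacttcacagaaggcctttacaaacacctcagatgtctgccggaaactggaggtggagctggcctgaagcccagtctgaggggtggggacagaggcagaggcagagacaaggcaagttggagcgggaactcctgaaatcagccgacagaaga
Gm11266: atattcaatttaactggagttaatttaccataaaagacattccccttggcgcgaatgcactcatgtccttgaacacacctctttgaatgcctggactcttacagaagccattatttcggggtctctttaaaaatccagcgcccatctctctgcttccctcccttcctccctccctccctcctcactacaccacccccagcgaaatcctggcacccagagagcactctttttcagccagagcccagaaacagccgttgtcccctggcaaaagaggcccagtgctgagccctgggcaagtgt
Kctd15: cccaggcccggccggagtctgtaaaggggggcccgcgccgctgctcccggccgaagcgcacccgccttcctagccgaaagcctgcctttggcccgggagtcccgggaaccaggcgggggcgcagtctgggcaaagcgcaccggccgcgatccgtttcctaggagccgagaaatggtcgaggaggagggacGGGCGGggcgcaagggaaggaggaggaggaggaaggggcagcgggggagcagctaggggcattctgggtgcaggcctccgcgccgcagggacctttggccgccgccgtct

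No motif was found in all 5 windows. The Cntrl window held 2 GC boxes, at -53 and -2 with the start site at 0, and the Kctd15 window held 1, at -60. The Myo5c window held a GC box at -106, CCAAT at -61 and -32 and TATAAA at -236. None of the 5 motifs was found in the windows of Tnfrsf18 and Gm11266. Over all 32851 promoter windows of the same length, GGGCGG was present in 35.7%, CCAAT in 37.4%, TATAAA in 13.6%, CAGCTG in 16.3% and TGACNNNGC in 12.4%. GC content was 72.3% in the Kctd15 window, 62.3% in that of Cntrl, 56.3% in that of Myo5c, 55.3% in that of Tnfrsf18 and 51.3% in that of Gm11266, beside a median of 52.7% over all windows.

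Each WT library held between 25351976 and 29111213 counts, and each KO library between 27345022 and 27815342. Mitochondrially encoded genes took 29.1% to 37.3% of counts in WT and 35.4% to 40.3% in KO. On the first principal component, KO replicate 2 lay at -6.1, away from KO replicates 1 and 3 at 40 and 48.5, with WT at -31.2 to -23.7. The targeted gene Selenow had 244 ± 24.4 CPM in WT against 205 ± 10.3 in KO (SD, n = 3 each). Its adjusted p was 0.604 in edgeR's quasi-likelihood test. Its WT libraries (219 to 268 CPM) and KO libraries (193 to 212) did not overlap, as for 15.4% of all tested genes in either direction. A count over the whole gene does not resolve the deleted exon. The paper reports loss of SELENOW protein in KO muscle by Western blot. All 12 skeletal muscle markers were detected, with a summed level of 98600 to 126000 CPM in WT and 107000 to 122000 in KO. CPM is the count relative to the size of the library after TMM scaling, which corrects for differences in library composition. P-values weigh the difference between the genotypes against the spread between the 3 libraries of each, estimated with information shared across genes.

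How unusual is the separation that defined the 5 genes? Of the 15623 tested genes, 2405 (15.4%) had non-overlapping WT and KO libraries, of which 1176 (7.53%) were higher and 1229 (7.87%) lower in KO. A total of 829 genes (5.31%) passed the DEG thresholds, an unadjusted p under 0.05 in edgeR with a fold change over 1.5 or under 0.7, with 342 higher (2.19%) and 487 lower (3.12%). This balance depended on the libraries: 422 were higher and 408 lower without KO replicate 3, 413 and 394 without the unnumbered WT library, and 238 and 671 without KO replicate 2. The 5 genes also passed these thresholds, which is read as nothing more than the way they were picked. After adjustment in edgeR 0 genes had a p under 0.05, while 1545 (9.89%) had an unadjusted p under 0.05. DESeq2 gave an adjusted p under 0.05 to 45 genes (0.288%) and put 771 (4.94%) past the same thresholds.

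The gap is the distance on the log2 CPM scale between the nearest WT and KO libraries. It was 1.16 for Tnfrsf18, 0.73 for Gm11266, 0.71 for Cntrl, 0.71 for Kctd15 and 0.50 for Myo5c, beside a median of 0.105 and a 90th percentile of 0.403 among the non-overlapping genes. In order of gap size, Tnfrsf18 ranked 6, Gm11266 55, Cntrl 60, Kctd15 62 and Myo5c 155 of the 2405. The 5 genes are thus among the wider gaps without being the 5 widest. At the edge of the rule, Plekhf2 lay just inside with a gap of 0.000200 and Nucks1 just outside at -3.79e-05.

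**Figure D1:**
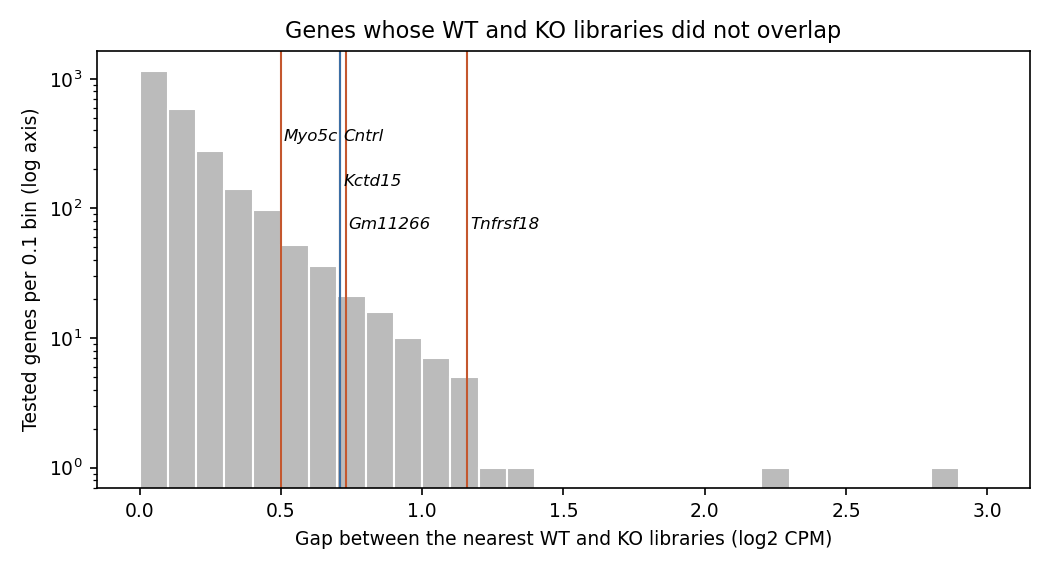
Number of tested genes (log axis) by the gap between the nearest WT and KO libraries on the log2 CPM scale, for the 2405 genes whose libraries did not overlap. Vertical lines mark the 5 genes, red where KO was higher and blue where it was lower, with gaps from 0.50 for Myo5c to 1.16 for Tnfrsf18.

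As compared with WT, 4 of the 5 genes were higher in KO muscle, by 1.94-fold to 2.73-fold, and Kctd15 was lower, at 0.546 of its WT level. Per kilobase of counted exon length, which allows genes to be set side by side, the WT order was Kctd15 at 5.17 ± 0.397 CPM per kilobase, Gm11266 at 3.05 ± 0.748, Myo5c at 1.20 ± 0.157, Cntrl at 0.646 ± 0.0482 and Tnfrsf18 at 0.525 ± 0.0607 (SD, n = 3 each). In WT, the libraries of neighbors in this order did not overlap, although Cntrl (0.597 to 0.693) and Tnfrsf18 (0.475 to 0.592) lay next to each other. In KO the order became Gm11266 at 7.60 ± 2.03, Kctd15 at 2.82 ± 0.138, Myo5c at 2.34 ± 0.505, Tnfrsf18 at 1.48 ± 0.128 and Cntrl at 1.27 ± 0.113 CPM per kilobase. Kctd15 (2.74 to 2.98) and Myo5c (1.95 to 2.91) overlapped there, and Tnfrsf18 (1.35 to 1.61) and Cntrl (1.14 to 1.35) met at their edges.

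**Figure D2:**
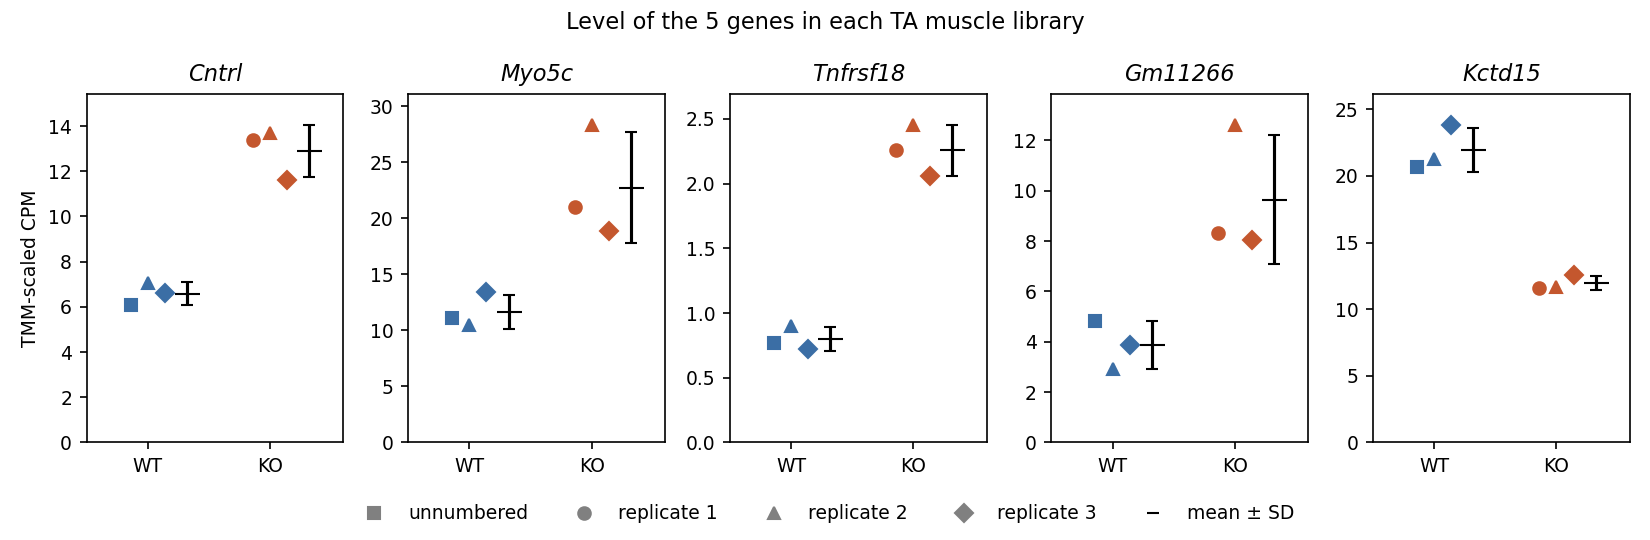
TMM-scaled CPM of the 5 genes in each library, blue for WT and red for KO, with the mean and SD of 3 libraries beside the points; every vertical axis starts at 0 and has its own scale. KO replicate 2 is the highest KO library for Cntrl, Myo5c, Tnfrsf18 and Gm11266, and all KO libraries of Kctd15 lie between 11.6 and 12.6 CPM, under the WT range.

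Cntrl (ENSMUSG00000057110), the centriole and midbody gene, lies on chromosome 2 from 34999504 to 35068834 on the plus strand in the coordinates of the count table, whose labels name the build GRCm39. Its CPM was 6.08 in the unnumbered WT library, 7.07 in WT replicate 2 and 6.62 in WT replicate 3, and 13.4, 13.7 and 11.6 in KO replicates 1, 2 and 3. The lowest KO library was above the highest WT library, and the libraries of each genotype were close together. Group levels were 6.59 ± 0.492 in WT against 12.9 ± 1.16 in KO (SD, n = 3 each), which is 0.96 as a log2 fold change. With 150 to 337 counts per library, the spread between WT libraries was 7.46% of the mean, near the 7.20% that counting alone gives, and 8.94% in KO, against 5.53% from counting. The median spread over all tested genes was 15.8% in WT and 14.4% in KO. Selection for separate libraries favors genes with a small spread, so this comparison is not read as a trait of Cntrl. Measured against the WT mean, KO replicates 1, 2 and 3 stood 1.02, 1.06 and 0.81 higher on the log2 scale.

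Other genes of the centriole and its appendages were examined beside Cntrl. The list held 49 genes, of which 44 were tested, and 1 of these (2.27%) passed the DEG thresholds, beside 5.31% of all tested genes. That gene was Cep250, which encodes C-Nap1, a linker protein between the centrioles of a pair. It rose from 2.82 ± 0.214 CPM in WT (2.92 in the unnumbered library, 2.96 and 2.57 in replicates 2 and 3) to 4.88 ± 0.411 in KO (4.55, 5.34 and 4.75 in replicates 1, 2 and 3), a log2 fold change of 0.79 (edgeR adjusted p = 0.275, SD, n = 3 each). Of the 44 genes, 38 had a log2 fold change above 0 and 6 below, with a median of 0.19, beside -0.00421 over all tested genes. An unadjusted p under 0.05 was found for 6 of the 44, beside 9.89% of all tested genes. Nin, which encodes ninein, another protein of the mother centriole's appendages, had 9.65 ± 0.797 CPM in WT and 12.2 ± 0.963 in KO with no overlap, a log2 fold change of 0.33 that did not pass the thresholds (adjusted p = 0.456). The count of 1 gene became 2 without KO replicate 2, without the unnumbered WT library or without WT replicate 2, and 3 without WT replicate 3. Of 12 tested proliferation genes, none passed the thresholds in edgeR or DESeq2, beside 5.31% of all tested genes in edgeR. None had an unadjusted p under 0.05, beside 9.89%. With 12 genes tested, counts of 0 cannot be told apart from these shares. Their median log2 fold change was -0.28, with 4 above and 8 below 0. Their 21 listed members summed to 24.7 to 28.8 CPM in WT and 22.1 to 27.7 in KO.

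Myo5c (ENSMUSG00000033590), the secretory granule myosin, lies on chromosome 9 from 75139302 to 75212733 on the plus strand in the table. WT libraries held 11.1 (unnumbered), 10.5 (replicate 2) and 13.4 CPM (replicate 3), and KO replicates 1, 2 and 3 held 21, 28.3 and 18.9. KO replicate 2 stood above the other KO libraries, and the lowest KO library was still above the highest WT library. The means were 11.7 ± 1.52 in WT against 22.7 ± 4.90 in KO (SD, n = 3 each). This is a log2 fold change of 0.96, which was 0.77 without KO replicate 2. Myo5c thus had the same fitted change as Cntrl but a larger spread, 13.0% of the mean in WT and 21.6% in KO.

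The motor's relatives and partners were called in both directions. Of 55 listed unconventional myosins and partners of class V myosins, 37 were tested. Past the thresholds, 2 were higher and 1 lower (8.11% in all, beside 5.31% of all tested genes). The median log2 fold change over the list was -0.023. An unadjusted p under 0.05 was found for 5 of the 37, beside 9.89% of all tested genes. Mlph, which encodes melanophilin, the adaptor that ties RAB27A on melanosomes to myosin Va, had 0.608, 0.809 and 0.988 CPM in the unnumbered WT library and WT replicates 2 and 3, against 1.89, 1.88 and 1.95 in KO replicates 1, 2 and 3. Its log2 fold change was 1.20 (edgeR adjusted p = 0.277), from 0.802 ± 0.190 to 1.90 ± 0.0362 CPM (SD, n = 3 each). Exph5, another RAB27 effector, rose from 0.577 ± 0.243 to 1.14 ± 0.0547 CPM, a log2 fold change of 0.94 (adjusted p = 0.455), and missed the thresholds without KO replicate 3, without the unnumbered WT library, without WT replicate 3 or with the replicate number as a block. Rab27b, a small GTPase of secretory granules, fell from 0.670 ± 0.193 to 0.213 ± 0.105 CPM, a log2 fold change of -1.50 (adjusted p = 0.340), on 3 to 21 counts per library. Myo5a, the neighboring class V myosin gene, had 7.44 ± 2.16 CPM in WT and 8.10 ± 1.51 in KO (adjusted p = 0.887), and Myo5b was too low to be tested, at 0.235 CPM in WT and 0.337 in KO. The list's count of 3 was 6 without WT replicate 2. Most epithelial markers were at or near 0: of 20 listed, 13 had a mean under 0.1 CPM, and Krt1, Krt5, Krt14, Krt15, Esrp1 and Cldn4 were at 0 in every library. The summed epithelial level was 11.8 to 14.7 CPM in WT and 10.6 to 12.7 in KO, most of it from Trp63, which had 8.70 CPM in WT and 8.02 in KO. Esrp2, an epithelial splicing factor gene, had 1.11 CPM in WT and 0.972 in KO. None of the 6 tested epithelial markers passed the thresholds in edgeR or DESeq2, beside 5.31% of all tested genes in edgeR. None had an unadjusted p under 0.05, beside 9.89%. With 6 genes tested, counts of 0 cannot be told apart from these shares.

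Tnfrsf18 (ENSMUSG00000041954), the gene of the receptor GITR, lies on chromosome 4 from 156110621 to 156113352 on the plus strand in the table. The unnumbered WT library held 0.771 CPM, WT replicates 2 and 3 held 0.903 and 0.725, while KO replicates 1, 2 and 3 held 2.26, 2.45 and 2.06. In reads this was 19, 29 and 22 counts in WT and 56, 60 and 55 in KO, the lowest counts of the 5 genes. No KO library came near the WT range. The level was 0.799 ± 0.0925 CPM in WT against 2.25 ± 0.194 in KO (SD, n = 3 each). The log2 fold change of 1.45 was the largest of the 5 in the main fit. Gm11266 exceeded it with the replicate number as a block (1.57 against 1.43) and without the unnumbered WT library (1.49 against 1.43). The spread between libraries, 11.6% in WT and 8.63% in KO, was smaller than the 20.7% and 13.2% that counting alone gives at this depth, so the closeness of the replicates is below what such counts can resolve.

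A second gene is counted from the same stretch of chromosome 4. Gm16008, an antisense transcript from 156106465 to 156116100 on the minus strand, shares 414 exon bases with Tnfrsf18, or 27.2% of the counted length of Tnfrsf18. It had 1.30 CPM in the unnumbered WT library, 1.53 in WT replicate 2 and 1.25 in WT replicate 3, against 2.90, 3.42 and 2.28 in KO replicates 1, 2 and 3. These levels ran in the same direction as those of Tnfrsf18, with a log2 fold change of 1.05 (edgeR adjusted p = 0.275), from 1.36 ± 0.147 to 2.87 ± 0.572 CPM (SD, n = 3 each). The sources used here do not state that strand was used in the counting, so reads of the shared stretch cannot be told apart between the genes.

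The ligand of GITR, Tnfsf18, had 0 counts in all 6 libraries, where 3 counts would correspond to 0.0934 to 0.122 CPM, an upper limit for counting error only. Tnfrsf4, which encodes OX40, a related costimulatory receptor of T cells, had 0.879 CPM in WT and 0.928 in KO, a log2 fold change of 0.08 (adjusted p = 0.959). Of 43 listed members of the TNF receptor superfamily and GITR signaling, 31 were tested and none passed the thresholds in edgeR or DESeq2, beside 5.31% of all tested genes. An unadjusted p under 0.05 was found for 3 of the 31, near the 9.89% of all tested genes. Their median log2 fold change was -0.046, with 13 above and 18 below 0. The count was 3 without KO replicate 1 and 1 to 2 without any other single library.

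T cell genes were set beside GITR. Of 22 listed T cell and NK cell markers, 5 were tested, and 3 rose past the thresholds, beside 2.19% of all tested genes: Cd3e and Cd247, which encode chains of the T cell receptor complex, and Cd28, a costimulatory receptor. Cd3e had 0.811, 1.34 and 1.15 CPM in the unnumbered WT library and WT replicates 2 and 3, against 1.37, 2.94 and 3.14 in KO replicates 1, 2 and 3, a log2 fold change of 1.14 (edgeR adjusted p = 0.316, n = 3 each). Its lowest KO library was barely above its highest WT library. Cd247 had a log2 fold change of 0.67, from 1.57 ± 0.406 to 2.50 ± 0.356 CPM (adjusted p = 0.440), and missed the thresholds without KO replicate 3, WT replicate 2 or WT replicate 3. Cd28 had a log2 fold change of 0.76, from 0.933 ± 0.154 to 1.61 ± 0.255 CPM (adjusted p = 0.440), and missed them without KO replicate 2, without WT replicate 2 or with the replicate number as a block. The other 2 tested markers, the regulatory T cell transcription factors Foxp3 and Ikzf2, had log2 fold changes of -0.03 and 0.14. Il2ra, too low to be tested at 3 to 11 counts, had 0.162 CPM in WT and 0.353 in KO without overlap. Ctla4, also too low to be tested, had a lower mean in KO, with 0.0600 CPM in WT and 0.0134 in KO. Its libraries overlapped near 0 (0 to 0.0988 in WT and 0 to 0.0403 in KO), so no direction is read. Of the 22 markers, 16 had a mean under 0.1 CPM, among them the defining genes Cd3d, Cd3g, Cd4, Cd8a and Lck, and Cd3d reached at most 2 counts in a library. The whole list summed to 13.4 to 14.6 CPM in WT and 15.3 to 20.3 in KO, and Ikzf2 (6.87 in WT and 7.57 in KO) and Foxp3 (2.74 and 2.69) made up much of this sum. The part of these cells in the level of Tnfrsf18 was not tested.

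**Figure D3:**
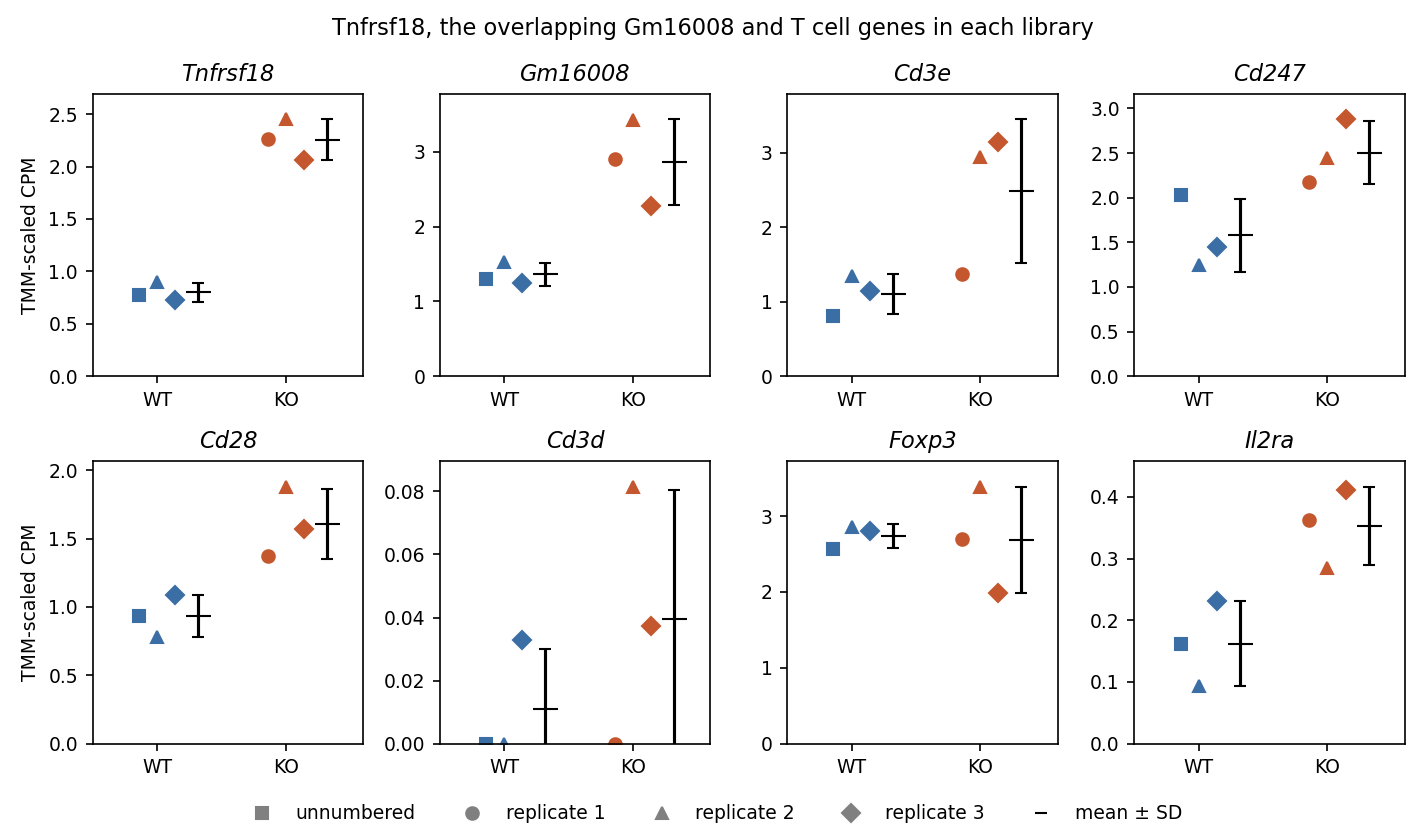
TMM-scaled CPM in each library of Tnfrsf18, the overlapping antisense gene Gm16008 and 6 T cell genes, with the mean and SD of 3 libraries per genotype (error bars are drawn down to 0 at most). Tnfrsf18, Gm16008, Cd3e, Cd247 and Cd28 lie higher in KO, Foxp3 libraries of the genotypes overlap, and Cd3d stays under 0.1 CPM. Il2ra, too low to be tested, lies at 0.0934 to 0.231 CPM in WT and 0.285 to 0.411 in KO.

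Gm11266 (ENSMUSG00000087413), the long noncoding RNA, lies on chromosome 4 from 82426253 to 82465529 on the plus strand in the table. It held 4.83 CPM in the unnumbered WT library, 2.93 in WT replicate 2 and 3.89 in WT replicate 3, and 8.30, 12.6 and 8.04 in KO replicates 1, 2 and 3. KO replicate 2 stood well above the others, and the WT libraries were also spread out. Levels were 3.88 ± 0.950 CPM in WT against 9.66 ± 2.58 in KO (SD, n = 3 each). The log2 fold change was 1.31 and was 1.08 without KO replicate 2. With a spread of 24.5% of the mean in WT and 26.7% in KO on 94 to 310 counts, it was the most variable of the 5, well beyond the 9.52% and 6.41% from counting. The gene lies within the span of Nfib on the opposite strand, from 82208410 to 82623987, and shares no exon base with it. As strand handling in the counting is not stated, reads of unspliced Nfib RNA cannot be told apart from reads of Gm11266. Nfib, which encodes a nuclear factor I transcription factor, had 90.9 to 107 CPM in WT libraries and 103 to 109 in KO libraries, a log2 fold change of 0.14 (edgeR adjusted p = 0.755).

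Kctd15 (ENSMUSG00000030499), the AP-2 inhibitor gene, lies on chromosome 7 from 34338439 to 34356157 on the minus strand in the table. It was the only one of the 5 with lower levels in KO. The unnumbered WT library held 20.7 CPM, WT replicates 2 and 3 held 21.3 and 23.8, while KO replicates 1, 2 and 3 held 11.6, 11.7 and 12.6. Levels were 21.9 ± 1.68 in WT against 12.0 ± 0.585 in KO (SD, n = 3 each), with a log2 fold change of -0.87. The spread was 7.67% in WT and 4.89% in KO on 286 to 724 counts. Counting alone gives 3.96% and 5.74%, so the closeness of the KO libraries is below what such counts can resolve. Selection for separate libraries also favors a small spread, which is not read as a trait of Kctd15. An opposite-strand gene, Gm12781, shares 104 exon bases (2.45%) with it and held 1 to 7 counts per library.

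Relatives and partners of Kctd15 were examined in the same way. Of 30 listed KCTD genes, AP-2 factors and CUL3, the ubiquitin ligase scaffold that many KCTD proteins bind, 20 were tested. None passed the thresholds in edgeR or DESeq2, beside 5.31% of all tested genes in edgeR, and none had an unadjusted p under 0.05, beside 9.89%. Their median log2 fold change was -0.034, with 9 above and 11 below 0. Kctd1, the closest relative, had 0.450 CPM in WT and 0.410 in KO, a log2 fold change of -0.13 (adjusted p = 0.944). One gene passed without KO replicate 2. Adipocyte and Schwann cell markers, which stand for other cells of the muscle, did not pass the thresholds in edgeR or DESeq2 either. None had an unadjusted p under 0.05 (5 and 6 tested). With so few genes, counts of 0 cannot be told apart from the shares over all tested genes. The adipocyte list summed to 195 to 326 CPM in WT and 253 to 278 in KO, nearly all from Plin4 (144 in WT and 155 in KO) and Fabp4 (100 and 94.6), while the defining fat cell genes Adipoq, Plin1, Lep and Cidec each had a mean under 0.3 CPM in either genotype. The Schwann cell list summed to 9.28 to 17.2 CPM in WT and 12.0 to 19.2 in KO.

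**Figure D4:**
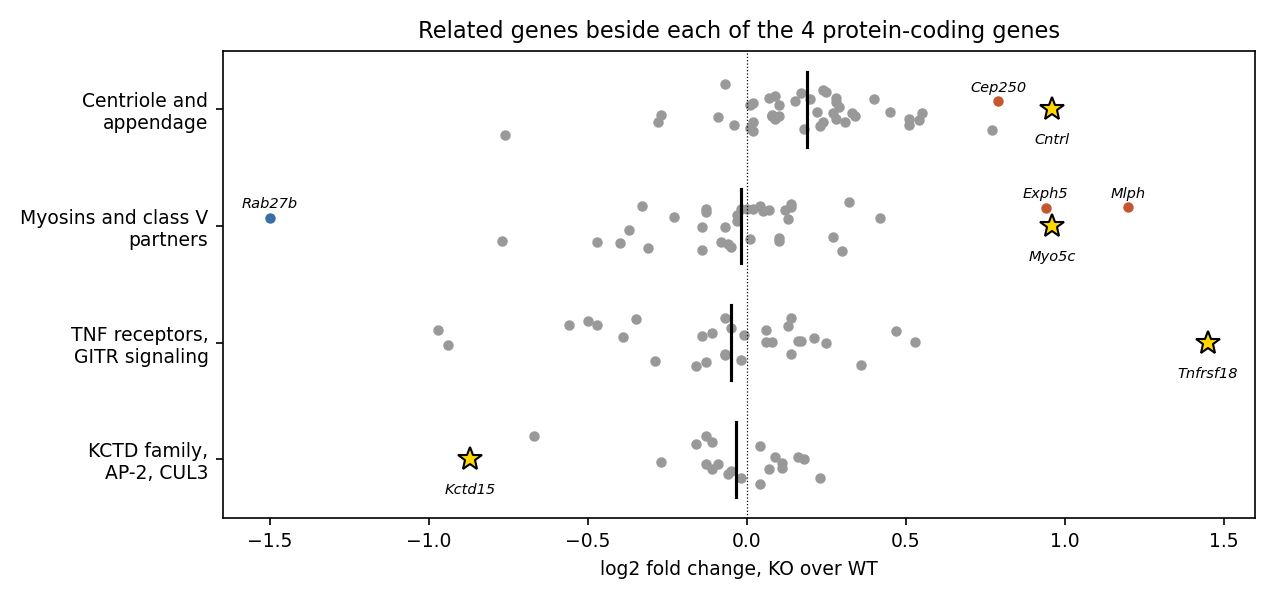
log2 fold change (KO over WT) of the tested genes in the list related to each of the 4 protein-coding genes. Stars mark Cntrl, Myo5c, Tnfrsf18 and Kctd15, colored points the genes past the DEG thresholds (Cep250, Mlph and Exph5 higher, Rab27b lower), and black bars the list medians of 0.19, -0.023, -0.046 and -0.034.

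Of the flanking genes, 4 had enough counts to be tested. None of these passed the thresholds in edgeR, beside 5.31% of all tested genes. Rab14, which begins 1383 bases beyond Cntrl, had a log2 fold change of -0.12 (edgeR adjusted p = 0.783). Gnb5, 837 bases beyond Myo5c, had -0.02 (adjusted p = 0.989), and Myo5a, 8332 bases before it on the same strand, had 0.12. AI182371, 7949 bases before Cntrl, both flanking genes of Tnfrsf18 and of Gm11266 and one of those of Kctd15 were too low to be tested. Gm44837, 1302 bases from Kctd15, had 0.16 (adjusted p = 0.904).

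Library by library, the 4 genes higher in KO had a common order. KO replicate 2 was the highest and KO replicate 3 the lowest of the KO libraries for each of them. Against the WT mean, the log2 differences in KO replicates 1, 2 and 3 were 0.85, 1.28 and 0.70 for Myo5c, 1.46, 1.58 and 1.33 for Tnfrsf18, 1.12, 1.72 and 1.07 for Gm11266 and -0.91, -0.91 and -0.79 for Kctd15. KO replicate 2 is the library that lay apart from the other KO libraries on the first principal component, and the part of this in the 4 levels was not tested. Without it the log2 fold changes were 0.92 for Cntrl, 0.77 for Myo5c, 1.39 for Tnfrsf18, 1.08 for Gm11266 and -0.85 for Kctd15.

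**Figure D5:**
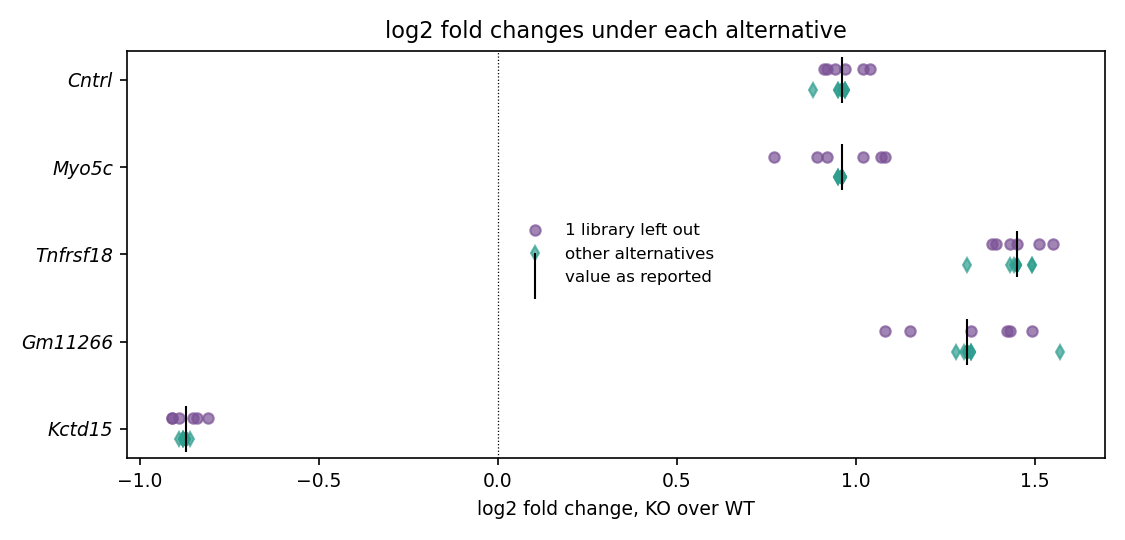
log2 fold change (KO over WT) of the 5 genes as reported (black bar), with 1 library left out (circles) and under the other processing alternatives (diamonds). No value crosses 0, which the selection for separate libraries largely fixed in advance. Myo5c and Gm11266 move most when a library is left out, from 0.77 to 1.08 and from 1.08 to 1.49.

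The likeness of patterns was measured as the root mean square difference of log2 CPM, centered on each gene's mean, over the 6 libraries, where 0 is the same pattern. Among the 5, Cntrl and Myo5c were closest at 0.18, and Cntrl and Tnfrsf18 differed by 0.26. Kctd15, which ran the opposite way, differed from the others by 0.93 to 1.18. Genes found this way separate WT from KO because the 5 genes do, so they are listed as a description. Among the genes nearest to Cntrl were Gm16008 at 0.12 and Gm11706 at 0.13. Nearest to Myo5c were E130102H24Rik at 0.08, Apobec3, a cytidine deaminase gene that restricts retroviruses, at 0.10 and Gm41442 at 0.10. Tnfrsf18 was nearest to Gm47438 at 0.14, Gm47640 at 0.18 and Zfhx2os at 0.18, each under 1 CPM on average. Gm11266 was nearest to Gm43520 at 0.14, 2310016D03Rik at 0.15 and Frmd8os at 0.21. Kctd15 was nearest to Prc1, a gene of the spindle midzone in dividing cells, at 0.12, to Retnla, a gene of alternatively activated macrophages, at 0.13 and to Gm6658 at 0.14. Prc1 had 2.14 ± 0.224 CPM in WT and 1.17 ± 0.0760 in KO, and Retnla had 0.973 ± 0.192 and 0.472 ± 0.0451 (SD, n = 3 each).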

How the data were processed

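Paired-end reads had been aligned by the authors in Hisat2 (version 2.1.0), and the authors deposited raw counts per gene from featureCounts (version 1.6) with gene lengths. The labels name GRCm39 and the methods GRCm38. Of 52135 genes placed by GENCODE M21 on GRCm38, 1546 had the table's start and end, so gene positions are given as the table has them and promoters on GRCm38.p6. Symbols were matched for 52083 of 55416 genes. Handling of strand and of multiply mapped reads is not given in the sources used here. The unnumbered WT column was assigned to WT without a replicate number.

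Genes were kept with filterByExpr, scaled by TMM and fitted with edgeR's robust quasi-likelihood test (version 4.0.16, R 4.3.3), with Benjamini-Hochberg adjustment over 15623 genes. Log2 values per library used a prior count of 1. DESeq2 (version 1.42.0), other filters and scalings, a replicate block and leaving out each library were alternatives. The steps were tested on simulated data. The 5 genes and the lists were chosen with earlier results of these data known. Named were the 5 genes, Selenow, listed genes past the thresholds, closest family genes, flanking and overlapping genes, and the 3 nearest in pattern, of which 1 is not reported here; other markers and genes within 500 kb were named after their values were seen. Replicates of a genotype differed beyond sampling noise (chi-square per degree of freedom 19.3 to 70.5).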

Additional observations from a re-analysis of the deposited data

How the results depend on the processing

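None of the 5 genes changed direction under any alternative, which their selection for separate libraries largely fixed in advance. Their log2 fold changes ranged from 0.88 to 1.04 for Cntrl, 0.77 to 1.08 for Myo5c, 1.31 to 1.55 for Tnfrsf18, 1.08 to 1.57 for Gm11266 and -0.91 to -0.81 for Kctd15. The value of Tnfrsf18 moved by more than its replicate spread only with a prior count of 5 (1.31 against 1.45), which pulls low counts together. The number of genes past the DEG thresholds was 829 as reported, 1766 without a filter and 807 to 1065 when a library was left out. The number with an adjusted p under 0.05 in edgeR was 0 as reported, 363 without a filter, 4 with at least 10 counts in every library, 38 with the replicate block, 16 without KO replicate 1, 242 without KO replicate 2 and 2 without WT replicate 3, and DESeq2 gave 45. The centriole list had 1 gene past the thresholds as reported, 2 with DESeq2, 3 without a filter, 3 with the replicate block and 1 to 3 with a library left out. The myosin list had 3 as reported and 2 to 6 with a library left out. The TNF receptor list had 0 as reported, 2 without a filter, 1 without robust estimation, 2 with the replicate block and 1 to 3 with a library left out. The KCTD list had 0 as reported and 0 to 1 with a library left out. Of 24 named genes past the thresholds, 14 stayed past them under every alternative in which they were tested and 10 did not. Some of the 24 were named for their values or for their likeness to the 5 genes. Their selection thus partly fixed this count in advance. The replicate block rests on 2 numbered pairs only, replicates 2 and 3, whose deviations from the genotype means correlated at 0.044 and -0.0736, and the labels name no pairing. With it, 890 genes passed the thresholds. The causes of these shifts were not tested. Low counts limit Tnfrsf18 (19 to 60 per library) and, more so, Rab27b (3 to 21), and every comparison has 3 libraries per genotype.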

Other observations

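Within 500 kb of the 5 genes, 80 other genes were tested and 4 passed the DEG thresholds, beside 5.31% of all tested genes. They are given here because of their values. Hspa5, which encodes the endoplasmic reticulum chaperone BiP, lies near Cntrl and fell from 225 ± 29.1 to 118 ± 33.0 CPM, a log2 fold change of -0.93 (edgeR adjusted p = 0.274, SD, n = 3 each). Near Myo5c, Fam214a rose with a log2 fold change of 0.67 (adjusted p = 0.301), and did not pass the thresholds without KO replicate 1 (0.56), without the unnumbered WT library (0.51) or with the replicate number as a block (0.41). Tmod2, a tropomodulin gene near Myo5c, rose with a log2 fold change of 0.76 (adjusted p = 0.478), and did not pass them without KO replicate 2 (0.70), KO replicate 3 (0.77) or WT replicate 2 (0.48). The fourth was Gm16008 beside Tnfrsf18. No tested gene near Gm11266 (3 tested) or Kctd15 (13 tested) passed the thresholds.

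RefSeq lists 4 start windows for Cntrl and 3 for Kctd15. The windows shown are the first listed for each. In 2 of the 4 Cntrl windows no GC box was found, and each held CCAAT at 2 places (-164 and -134, and -182 and -152). In the same windows the letters TGACNNNGC were found, at -34 and -52 from the start site, and these letters were found in 12.4% of all windows. These 2 windows begin at 35131966 and 35131984 and overlap, so their matches are the same sites counted from 2 start sites. The count table does not show which start site was used.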
